A study of Mus musculus with 16 samples.

Results

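The genes described here are 10 members of cytochrome P450 families 1 and 2 that do not belong to the Cyp2a, Cyp2b or Cyp2c subfamilies: Cyp1a2, Cyp2d9, Cyp2d10, Cyp2d22, Cyp2d26, Cyp2e1, Cyp2f2, Cyp2j5, Cyp2r1 and Cyp2u1. They were taken by name, each with at least 1 probe on the array, and they are 10 of the 19057 genes with a probe. RNA from mouse liver was measured in 3 males and 5 females carrying a deletion in the Retinoid X Receptor α gene of their hepatocytes (KO, genotype label hs-RXRa-Dex4-/-), and in 3 male and 5 female wild-type (WT) mice, all 2 months old and each on 1 Illumina array. The labels give no strain, diet or treatment. RXRα is the shared partner of many nuclear receptors, and the deletion removes the DNA-binding domain in hepatocytes. The other cells of the liver keep the receptor, and the promoter that drives the recombinase is not given in the sources used here. The animals are numbered 4 to 6 (male KO), 6 to 10 (female KO), 1 to 3 (male WT) and 1 to 5 (female WT), and nothing states that these are separate litters or extraction days.

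P450 enzymes of these families are haem proteins of the endoplasmic reticulum that oxidise drugs, steroids, fatty acids and other lipids with electrons passed on from NADPH. In the liver lobule they are unevenly spread: Cyp1a2 and Cyp2e1 are known from hepatocytes around the central vein (pericentral), and Cyp2f2 from those around the portal tract (periportal). Several mouse liver P450 genes are sexually dimorphic, and the pattern of growth hormone secretion is the best known signal behind this. Cyp2d9 is the classical male-specific testosterone hydroxylase of mouse liver.

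The 4 Cyp2d genes lie within 424 kb of chromosome 15 (GRCm38.p6, chr15:82370527-82794452), and Cyp2d10 and Cyp2d9 are neighbours in this set, 45 kb apart and on opposite strands. The 250 bases before a RefSeq start of 4 genes are shown. For Cyp2d10 and Cyp2d26, on the - strand, the window reaches into the gene span, which ends at 82407253 and 82794452. On the brightest probe of each gene, Cyp2d9 and Cyp2f2 were the genes that passed as higher in males of both genotypes. Cyp2d10 and Cyp2d26 are cluster members of Cyp2d9 that did not share this. Capitals mark TTCCGG, the core letters bound by ETS-type factors such as GABP, or AGGTCA, the half-site of nuclear receptors, each searched on both strands (CCGGAA and TGACCT).
Cyp2d9 (chr15:82452127-82452376, + strand): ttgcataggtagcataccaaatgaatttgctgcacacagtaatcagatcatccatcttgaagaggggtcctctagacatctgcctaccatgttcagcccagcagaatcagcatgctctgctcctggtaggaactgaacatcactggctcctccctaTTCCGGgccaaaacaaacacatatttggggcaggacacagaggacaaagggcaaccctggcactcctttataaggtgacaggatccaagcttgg
Cyp2d10 (chr15:82407195-82407444, - strand): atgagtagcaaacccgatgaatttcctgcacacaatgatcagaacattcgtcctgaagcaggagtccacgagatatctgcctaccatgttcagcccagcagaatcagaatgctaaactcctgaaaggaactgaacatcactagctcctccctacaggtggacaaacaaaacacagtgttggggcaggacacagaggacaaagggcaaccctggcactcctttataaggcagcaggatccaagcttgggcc
Cyp2d26 (chr15:82794246-82794495, - strand): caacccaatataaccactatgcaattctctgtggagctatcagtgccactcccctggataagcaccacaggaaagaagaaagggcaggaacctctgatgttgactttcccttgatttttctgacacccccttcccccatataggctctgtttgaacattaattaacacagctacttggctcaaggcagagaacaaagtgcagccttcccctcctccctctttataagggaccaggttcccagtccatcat
Cyp2f2 (chr7:27119705-27119954, + strand): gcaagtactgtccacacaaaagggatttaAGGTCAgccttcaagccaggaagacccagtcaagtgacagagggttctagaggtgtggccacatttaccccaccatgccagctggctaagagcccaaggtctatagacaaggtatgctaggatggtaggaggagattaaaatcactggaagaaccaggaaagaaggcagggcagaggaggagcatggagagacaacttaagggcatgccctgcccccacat

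The Cyp2d9 and Cyp2d10 windows were 85.0% identical (209 of 246 aligned bases), and the Cyp2d9 and Cyp2d26 windows were 61.2% identical (139 of 227). TTCCGG was present in the Cyp2d9 window, from 94 to 89 bases before the start, and in neither of the other Cyp2d windows. The Cyp2r1 window also held it, from 250 to 245 bases before the start, and on the other strand from 248 to 243. The only CG dinucleotide of the Cyp2d9 window lies in these letters. A sex-specific GABP site with a methylated CpG in the Cyp2d9 promoter is known from earlier work on mouse liver, and neither methylation nor binding was measured here. AGGTCA was found in the Cyp2f2 window, from 221 to 216 bases before the start, and in the window of Cyp2j5. Of all 32851 RefSeq promoter windows of this length 12.0% hold TTCCGG and 14.0% hold AGGTCA on either strand, so each match is a description only. Promoter windows were matched for 8 of the 10 genes, and Cyp2d22 and Cyp2u1 had none in the table used.

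Intensities are background-subtracted, quantile-normalised and linear, and a level can be compared between arrays for 1 probe but not between probes. Rxra, the targeted gene, had intensities of 62.1, 109 and 84.4 in male KO livers and of 88.6, 101, 74.8, 54.2 and 81.7 in female KO livers, against 78.4, 47.7 and 65.5 in male WT and 59.7, 64.4, 52.6, 106 and 66.2 in female WT livers. KO and WT overlapped in both sexes, and where the Rxra probe lies relative to the deleted exon is not given in the sources used here, so this signal does not check the genotype labels. KO and WT are therefore used as the labels of the libraries throughout. The 6 hepatocyte markers listed (Alb, Apoa1, Ttr, Serpina1c, Tat, Cps1) were detected on all 16 arrays. The 16 arrays had 8725 to 8984 detected genes, and their mean correlation with the other arrays of their group was 0.970 to 0.983. It was lowest for female WT 4 and female KO 9. In whole liver, fewer cells of a type and less RNA per cell cannot be told apart.

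The largest differences among these P450 genes were between the sexes. Cyp2d9 and Cyp2f2 were higher in males than in females in both genotypes, and on its brightest probe Cyp2u1 was higher in males in WT livers. No gene of the set passed the test (limma, Benjamini-Hochberg adjusted p under 0.05 over 9906 genes) between KO and WT, in males or in females. The test was possible for 9 of the 10, since the Cyp2j5 probe was not detected on any array. Male minus female passed for 2 of 9 in KO livers, where 2.36% of all genes passed, and for 3 of 9 in WT livers, where 3.71% passed. KO minus WT passed for 0 of 9 in males and 0 of 9 in females, where 1.5% and 2.37% of all genes passed. The test of whether KO minus WT differed between the sexes (interaction) passed for 0 of 9 (0.0606% of all genes). At an unadjusted p under 0.05, the counts were 5 of 9 for KO minus WT in males (14.3% of all genes), 0 of 9 in females (12.3%), 2 of 9 for male minus female in KO (14% of all genes), 5 of 9 in WT (17.4%) and 1 of 9 for the interaction (8.6%).

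**Figure D1:**
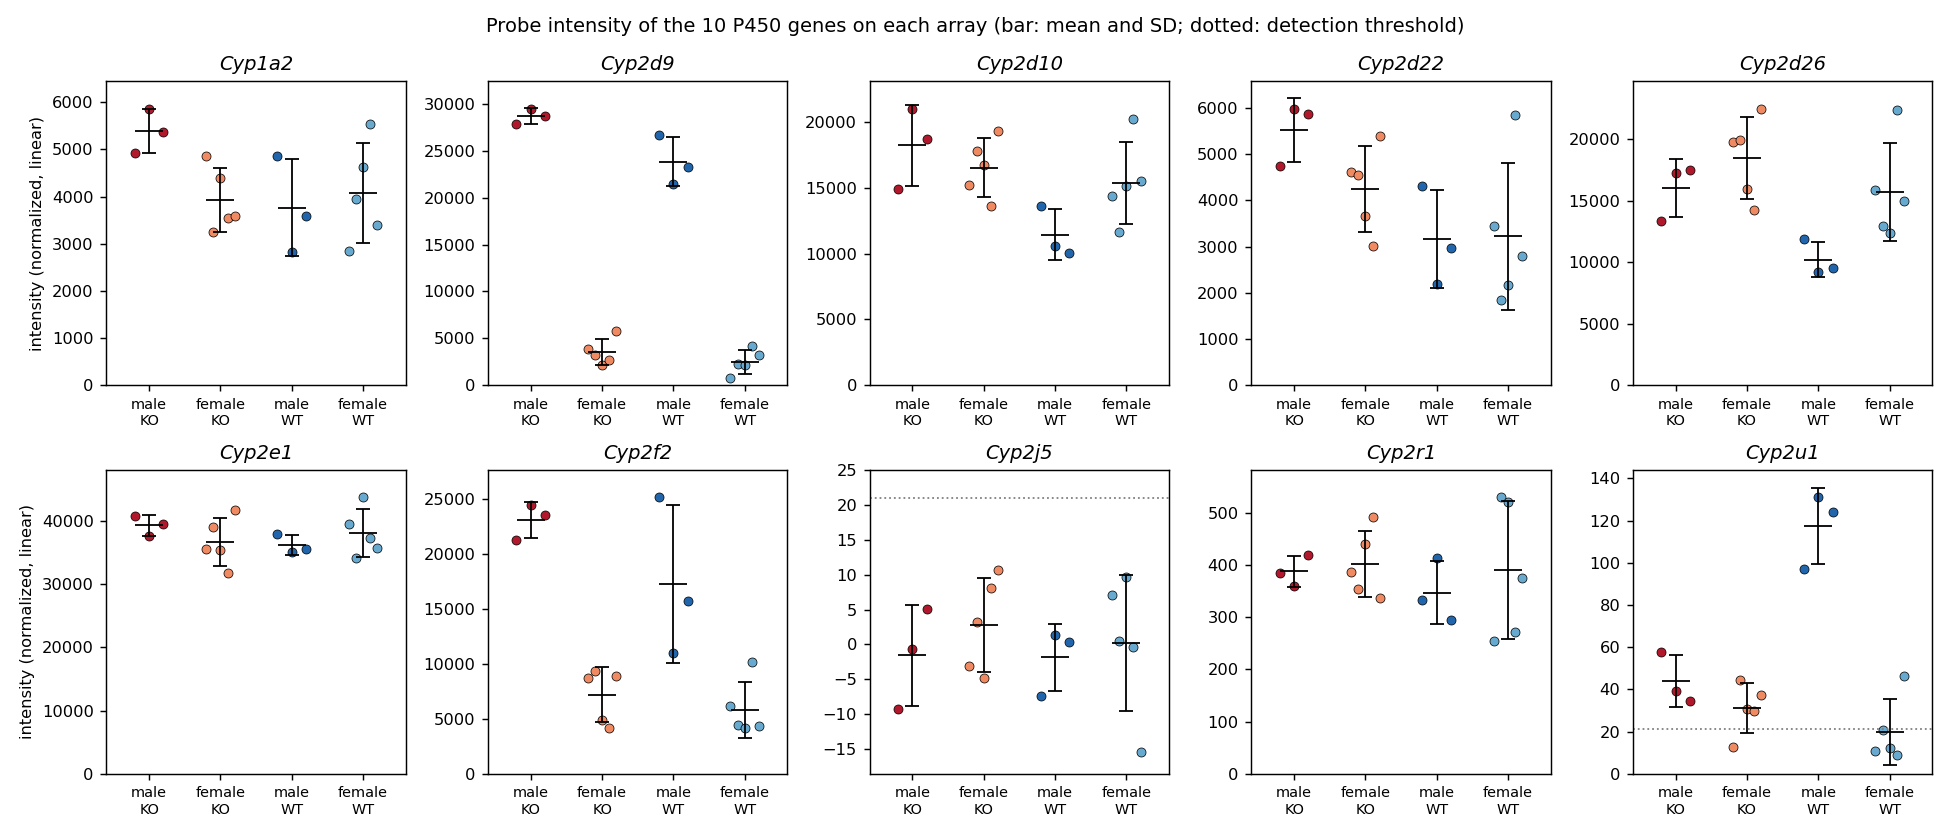
Intensity of the brightest probe of each gene (vertical axis, linear, own scale for each gene) in the 4 groups, with 1 point per array, the mean and the SD. The Cyp2d9 points of the males (21511 to 29513) lie above those of all females (706 to 5811), the Cyp2f2 points of male KO livers lie above those of female KO livers, and the Cyp2j5 points stay below the detection threshold.

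Cyp2d9 was 8.57-fold higher in males than in females among KO livers and 11.1-fold higher among WT livers. Its intensities were 27854, 29513 and 28760 in male KO livers, against 3856, 3168, 2179, 2663 and 5811 in female KO livers. They were 26651, 21511 and 23324 in male WT livers, against 706, 2193, 2136, 4131 and 3154 in female WT livers. Males and females did not overlap in either genotype, and the female arrays were the more scattered, with a 1.24-fold range in male WT and a 5.85-fold range in female WT livers. On the log2 scale male minus female was 3.10 ± 0.42 (SE; adjusted p = 0.000308) in KO and 3.47 ± 0.42 (adjusted p = 6.99e-05) in WT livers, with 95% confidence intervals of 2.21 to 3.98 and 2.59 to 4.36.

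Between genotypes Cyp2d9 did not pass. All 3 male KO arrays lay above the 3 male WT arrays, with means of 28709 ± 831 and 23829 ± 2606 (SD, n = 3 each), and the log2 difference was 0.27 (adjusted p = 0.826). In females the means were 3536 ± 1416 in KO and 2464 ± 1278 in WT livers (SD, n = 5 each), the groups overlapped, and the log2 difference was 0.65 (adjusted p = 0.532; interval -0.12 to 1.41). Without female WT 1, the array at 706, it was 0.25.

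Cyp2f2, the enzyme that activates naphthalene in mouse airway and a periportal gene in liver, was about 3-fold higher in males. Its intensities were 21293, 24461 and 23549 in male KO livers, against 8758, 9349, 4905, 4131 and 8922 in female KO livers. The 2 groups were clearly separate, and the lowest male array was more than 2-fold above the highest female one. In male WT livers they were 25182, 10960 and 15736, against 6129, 4439, 4159, 10175 and 4311 in female WT livers. Here the groups touched without overlapping: male WT 2 at 10960 lay just above female WT 4 at 10175. Male minus female was 1.75 ± 0.34 on the log2 scale in KO (3.37-fold; SE; adjusted p = 0.00836) and 1.57 ± 0.34 in WT livers (2.97-fold; adjusted p = 0.0152). The KO difference no longer passed without male KO 5 (1.71; adjusted p = 0.0575), and the WT difference without male WT 1 (1.26; adjusted p = 0.0723) or without male WT 3 (1.60; adjusted p = 0.0653).

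Male KO livers were more alike in Cyp2f2 than male WT livers, with means of 23101 ± 1631 and 17293 ± 7237 (SD, n = 3 each), and male WT 1 was above every male KO array. KO minus WT was 0.50 in males (adjusted p = 0.569; interval -0.31 to 1.31) and 0.31 in females (adjusted p = 0.774; interval -0.31 to 0.94). The male interval contains both no change and a 2-fold rise, which is 1 on this scale.

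These sex differences also passed without the arrays least like their own group. Without female KO 9, male minus female in KO was 3.02 for Cyp2d9 (adjusted p = 0.00122) and 1.57 for Cyp2f2 (adjusted p = 0.0191). Without female WT 4, male minus female in WT was 3.71 for Cyp2d9 (adjusted p = 3.17e-05), 1.79 for Cyp2f2 (adjusted p = 0.00339) and 1.87 for Cyp2u1 (adjusted p = 0.00144). The test of whether the sex difference differed between the genotypes did not pass for Cyp2d9 (interaction -0.37, adjusted p = 0.827) or Cyp2f2 (0.18, adjusted p = 0.898), and its intervals were wide (-1.62 to 0.88 and -0.84 to 1.21).

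**Figure D2:**
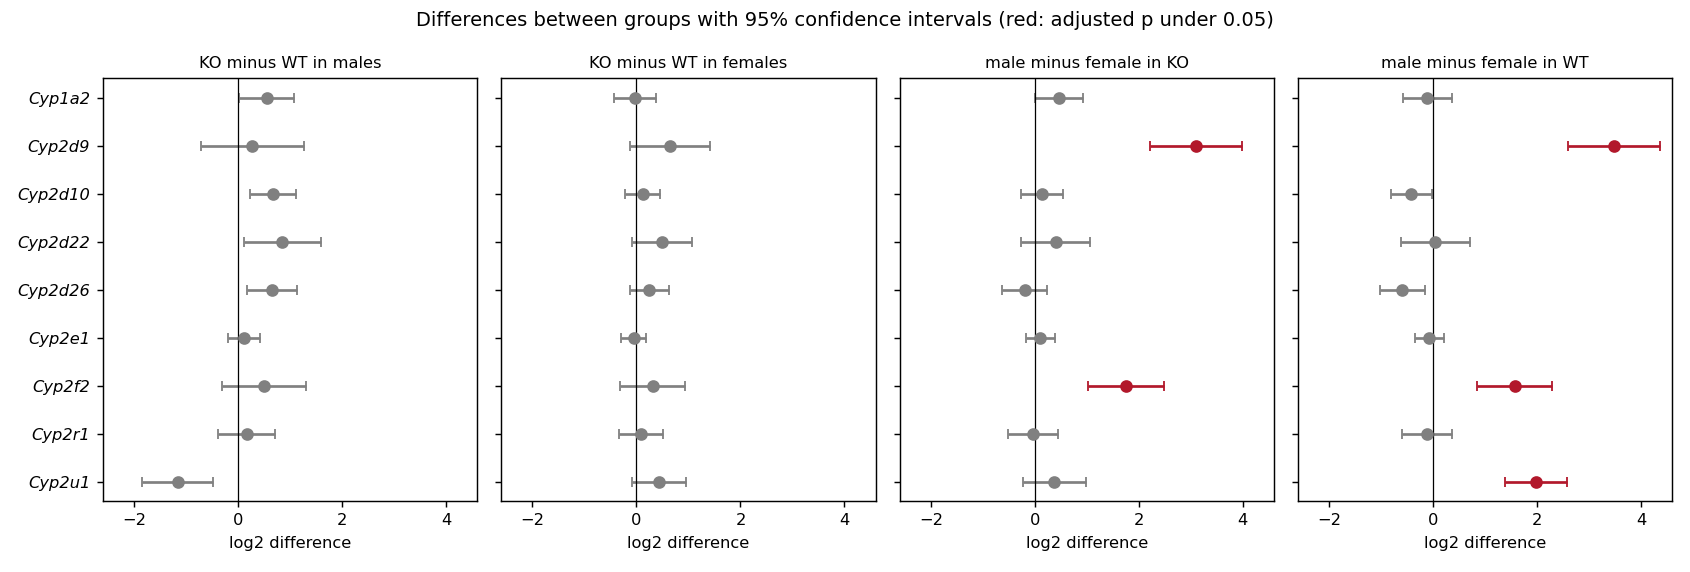
Log2 difference of each tested gene (points) with its 95% confidence interval (bars) in 4 comparisons, red where the adjusted p is under 0.05. Red points stand at 3.10 and 3.47 for Cyp2d9, at 1.75 and 1.57 for Cyp2f2 and at 1.97 for Cyp2u1, all male minus female, and there is none in the KO minus WT panels.

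Cyp2u1, a fatty acid hydroxylase, was a dim gene whose probes disagreed on the genotype. On its brightest probe the intensities were 57.9, 39.3 and 34.4 in male KO livers and 12.5, 44.3, 30.9, 29.8 and 37.5 in female KO livers. In WT livers they were 96.9, 131 and 124 in males and 10.6, 20.9, 12.1, 8.94 and 46.5 in females. Male WT livers were therefore the only clearly high group, and only 2 of 5 female WT arrays were above the detection threshold of about 21. Male minus female was 1.97 ± 0.28 in WT (SE; adjusted p = 0.000507) and 0.37 ± 0.28 in KO livers (adjusted p = 0.604). KO minus WT in males was -1.16 ± 0.32 (adjusted p = 0.0879), which misses the threshold although the groups do not overlap, and the interaction was -1.60 (adjusted p = 0.287).

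On the second probe, ILMN_2477408, the male intensities were 64.9, 30.9 and 76.2 in KO and 62.3, 53.2 and 60.7 in WT livers. Female intensities were 13.4, 8.60, 5.10, 11.7 and 21.9 in KO and 8.44, 19.6, 19.1, 25.4 and 18.4 in WT livers. Here the males were high in both genotypes: male minus female was 1.35 in KO and 1.15 in WT. This probe was detected on all 3 arrays of each male group and on 1 array of each female group. Only the males brought it past the filter of 3 detected arrays, so p-values between the sexes are not given for it. KO minus WT in males was -0.08 (adjusted p = 0.913), and the interaction turned to 0.21. WT males were above WT females on both probes, but the second was kept only through the males and adds no independent support. The lower value in male KO livers was seen on the brightest probe alone. The mean of the kept Cyp2u1 probes gave 0.86 for male minus female in KO livers, and it includes the second probe. The last of the 3 probes was detected on 1 array.

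**Figure D3:**
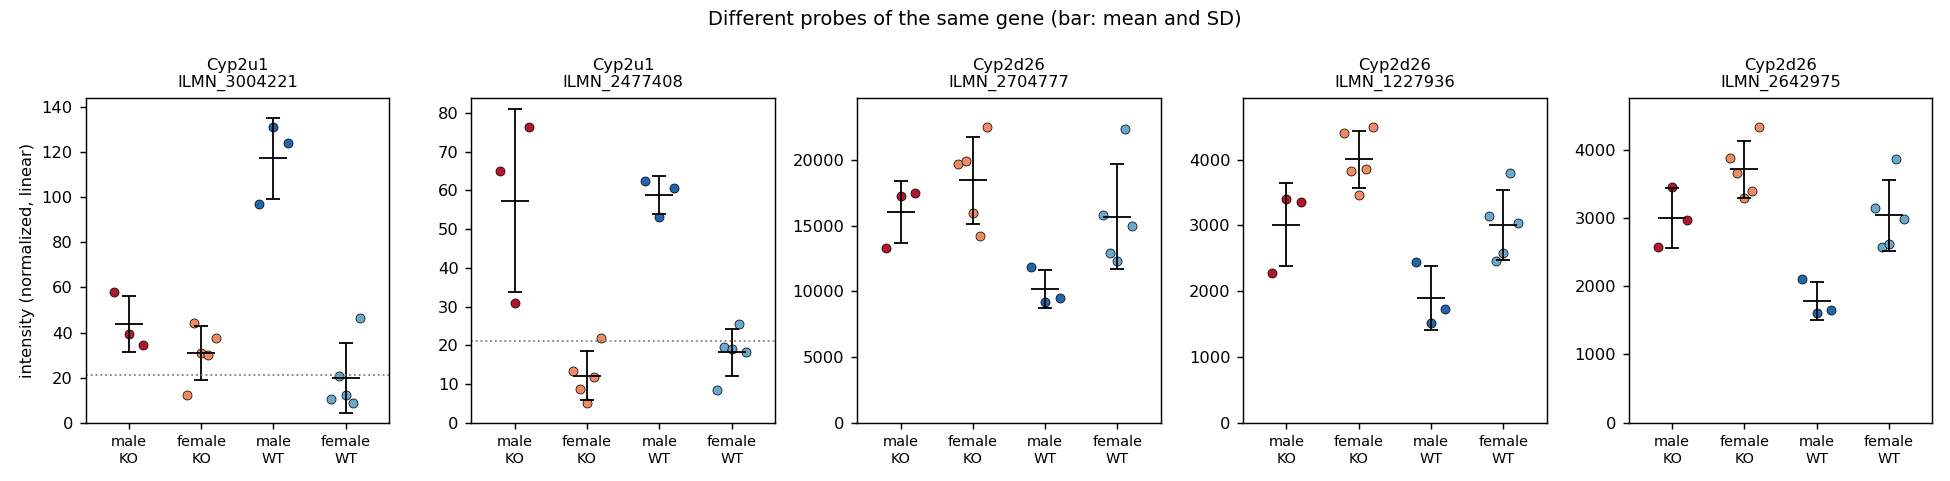
Intensity (linear) of 2 Cyp2u1 probes and 3 Cyp2d26 probes by group, with 1 point per array, the mean and the SD; the dotted line is the detection threshold. Male KO is below male WT on the first Cyp2u1 probe and level with it on the second (means 57.4 and 58.7), while on all 3 Cyp2d26 probes the mean is lowest in male WT and highest in female KO.

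Cyp2d10, Cyp2d22 and Cyp2d26, the other Cyp2d genes of this set, did not pass as higher in males, in KO or in WT livers. Cyp2d10 had intensities of 14937, 21018 and 18723 in male KO livers and of 13609 to 19341 (median 16723) in female KO livers, against 13641, 10576 and 10064 in male WT and 11612 to 20241 (median 15160) in female WT livers. The male WT livers were the lowest group. KO minus WT in males was 0.67 ± 0.21 (SE; 1.59-fold; adjusted p = 0.131), and male minus female in WT was -0.42 (adjusted p = 0.259).

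Cyp2d26 had its lowest mean in male WT and its highest in female KO livers on all 3 of its probes. The brightest gave 13352, 17299 and 17503 in male KO livers and 14227 to 22499 (median 19749) in female KO livers, against 11871, 9232 and 9537 in male WT and 12357 to 22366 (median 14999) in female WT livers. All 3 male WT arrays lay below all other arrays of this probe. Male minus female in WT was -0.60 ± 0.20 (SE; adjusted p = 0.128) on the brightest probe and -0.67 (adjusted p = 0.0699) on the second. On the third it was -0.75 and passed (adjusted p = 0.0163). KO minus WT in males was 0.65 (adjusted p = 0.191), 0.67 (adjusted p = 0.154) and 0.74 (adjusted p = 0.0589) on the 3 probes.

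Cyp2d22 had 4736, 5988 and 5872 in male KO livers and 3012 to 5395 (median 4560) in female KO livers, against 4306, 2199 and 2970 in male WT and 1833 to 5859 (median 2806) in female WT livers. The male genotypes did not overlap, and the female ones did. KO minus WT was 0.85 ± 0.35 in males (SE; adjusted p = 0.275) and 0.49 ± 0.27 in females (adjusted p = 0.526). A second Cyp2d22 probe was close to the detection threshold (detected on 7 of 16 arrays) and gave 0.29 in males (adjusted p = 0.643) and -0.19 in females. Sequences of the Cyp2d genes are similar, and where each probe lies is not given in the sources used here, so signal of 1 copy on the probe of another is uncertain.

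Across the set, KO and WT males did not overlap for 6 of the 9 genes tested, where 23.1% of all genes do not overlap. Cyp1a2, Cyp2d9, Cyp2d10, Cyp2d22 and Cyp2d26 were the higher in KO and Cyp2u1 was the lower. The median KO minus WT difference of the 9 was 0.50 in males and 0.25 in females, beside 0.02 and 0.00 over all genes tested. In females 0 of the 9 were without overlap (3.89% of all genes). Males and females did not overlap for 3 of the 9 in KO livers (Cyp1a2, Cyp2d9 and Cyp2f2; 13.1% of all genes) and for 4 in WT livers (Cyp2d9, Cyp2d26, Cyp2f2 and Cyp2u1; 11.5%). None of these genotype differences passed the adjusted test. When arrays were weighted by their quality, 5 of them did in males (Cyp1a2, Cyp2d10, Cyp2d22, Cyp2d26 and Cyp2u1), and with these weights the count over all genes also grew, to 1611 with weights against 149 without.

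Of the other Cyp1, Cyp2d and Cyp2j genes listed, 5 of 15 could be tested. Cyp2d40 was the 1 that passed, and it was higher in KO livers of both sexes (1.5% of all genes passed in males and 2.37% in females). Its intensities were 5341, 6512 and 6568 in male KO livers and 4879, 7753, 7943, 5872 and 5751 in female KO livers, against 2563, 3725 and 2911 in male WT and 3474, 3994, 3805, 4775 and 3805 in female WT livers. No KO array fell below a WT array of the same sex. KO minus WT was 1.01 in males (adjusted p = 0.0172) and 0.68 in females (adjusted p = 0.0324). When each of the 16 arrays was left out in turn, the male difference passed in 12 fits (adjusted p up to 0.0864) and the female one in 10 (adjusted p up to 0.093). Between the sexes none of the 5 passed. Cyp2d12, detected on 10 of 16 arrays, had a male minus female difference of 1.40 in KO (SE 0.46; adjusted p = 0.152) and 1.49 in WT livers (SE 0.46; adjusted p = 0.0857). For Cyp2d13 it was 0.71 in KO (adjusted p = 0.353) and 0.16 in WT livers (adjusted p = 0.858). It was also above 0 for Cyp2j9 (0.69 in KO and 0.38 in WT livers). It was below 0 for Cyp1b1 (-0.53 and -0.35) and Cyp2d40 (-0.05 and -0.38). Cyp1a1, the other hepatic Cyp1a gene, was not detected on any array.

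Cyp1a2, the pericentral enzyme that oxidises caffeine and arylamines, had intensities of 4928, 5866 and 5373 in male KO livers and 4866, 3258, 4404, 3535 and 3592 in female KO livers. In WT livers they were 4866, 2827 and 3596 in males and 2849, 3940, 4635, 5549 and 3397 in females. The male KO livers were the highest group by mean, 5389 ± 470 (SD, n = 3), and their lowest array was just above the highest of male WT and of female KO livers. KO minus WT was 0.55 ± 0.25 in males (SE; adjusted p = 0.325) and -0.03 ± 0.19 in females (adjusted p = 0.975). Male minus female was 0.47 in KO (adjusted p = 0.357) and -0.11 in WT livers (adjusted p = 0.853). A second probe gave 0.47 and -0.12 for KO minus WT in males and females.

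Of the aryl hydrocarbon receptor pathway, which induces Cyp1a2, 4 of 11 listed genes were tested, and Ahr itself was not detected. Ugt1a6a, which glucuronidates phenols, was the 1 that passed, with male minus female in WT of -0.76 (adjusted p = 0.0146), where 3.71% of all genes passed. However, the mean of its detected probes gave 0.02 (adjusted p = 0.973). It also did not pass without male WT 2 or without male WT 3 (adjusted p up to 0.112). Its intensities were 4760, 4179 and 3600 in male WT livers, against 7118, 6936, 7828, 6986 and 6474 in female WT livers. In KO livers the sexes overlapped, at 5111, 5103 and 6335 in males and 3862 to 6369 (median 4641) in females.

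Cyp2e1, the pericentral enzyme that oxidises ethanol and paracetamol, varied least among arrays of the 9 genes tested (SE of 0.15 for KO minus WT in males). Its intensities were 40757, 37568 and 39557 in male KO livers and 35482, 39008, 35336, 31733 and 41798 in female KO livers. In WT livers they were 37993, 35017 and 35482 in males and 39557, 34082, 43731, 37357 and 35798 in females. All groups overlapped. KO minus WT was 0.12 in males (interval -0.19 to 0.43) and -0.06 in females (interval -0.30 to 0.18), and male minus female was 0.11 in KO and -0.07 in WT livers, with adjusted p of 0.739 to 0.909 over the 4. The probe ranked from 1 to 51 among the 34885 probes of 1 gene, and female WT 3 was at the highest value of its array. Quantile normalisation sets that value the same on each array, so the top of the scale limits how far Cyp2e1 could vary.

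Of the pericentral and periportal lists, 1 gene passed between KO and WT, where 1.5% of all genes passed in males and 2.37% in females. In the pericentral list, 15 of 20 were tested, and Oat, ornithine aminotransferase, was the 1 that rose in KO livers. Oat intensities were 18481, 27149 and 24672 in male KO and 23445 to 32231 (median 23939) in female KO livers, against 12832, 8818 and 10495 in male WT and 9422 to 18330 (median 15279) in female WT livers. The genotypes did not overlap in either sex, and KO minus WT was 1.13 in males (adjusted p = 0.0212) and 0.92 in females (adjusted p = 0.0125). The female difference passed whichever of the 16 arrays was left out, and the male one did not without male KO 5, male KO 6, male WT 2 or male WT 3 (1.12 or less; adjusted p up to 0.121). Glul, glutamine synthetase and the best known pericentral marker, did not pass between genotypes: 0.08 in males (adjusted p = 0.919) and -0.56 in females (adjusted p = 0.263). Aldh1a1, a retinaldehyde dehydrogenase, gave -1.02 in males (adjusted p = 0.202) and -1.02 in females (adjusted p = 0.078), a size close to that of Oat with the opposite sign. For KO minus WT the median of the 15 was 0.24 in males, with 3 below 0, and -0.30 in females, with 9 below 0, beside 0.02 and 0.00 over all genes. At an unadjusted p under 0.05, 3 were higher and 1 lower in males (14.3% of all genes in either direction). In females 1 was higher and 4 lower (12.3% of all genes).

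Between the sexes, Glul was lower in males among WT livers, with 1530, 1415 and 1377 in males, against 3812, 2663, 2381, 4017 and 1852 in females (-0.97; adjusted p = 0.0436). Cyp7a1, the first enzyme of bile acid synthesis, was also lower in WT males, with 891, 1493 and 1570, against 3023 to 6129 (median 5183) in WT females (-1.79; adjusted p = 0.0273). In neither case did the sexes overlap in WT livers, yet with 1 array left out Glul passed in only 4 of 16 fits (adjusted p up to 0.172) and Cyp7a1 in 10 (adjusted p up to 0.0987). In KO livers male minus female did not pass for either (-0.32, adjusted p = 0.623, and -0.41, adjusted p = 0.723). The pericentral list had 2 of 15 genes lower in WT males and none higher, where 3.71% of all genes passed, and its median was -0.38, beside -0.02 over all genes. Under the alternatives the count was 0 to 6, with 0 when dim probes were kept and 6 with array weights. Both Cyp7a1 and Glul also failed to pass without male WT 1, male WT 2, male WT 3, female WT 1 or female WT 2. With the replicate number as a block, fitted on 6 WT arrays, neither passed (adjusted p = 0.107 for Cyp7a1 and 0.108 for Glul). On the same 6 arrays without the block Glul did not pass either (adjusted p = 0.0944), while Cyp7a1 did.

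In the periportal list, 16 of 20 genes were tested and none passed between KO and WT. Between the sexes 1 passed in KO and 1 in WT livers, where 2.36% and 3.71% of all genes passed. Hal, histidine ammonia-lyase, had 6199, 4915 and 8720 in male KO and 7418 to 11225 (median 7892) in female KO livers, against 4325 to 7279 (median 5004) in male WT and 5373 to 6740 (median 5831) in female WT livers. Female KO livers were all above female WT livers, yet KO minus WT was 0.50 and did not pass (adjusted p = 0.211). Ctsc, the lysosomal protease cathepsin C, was lower in WT males (-2.74; adjusted p = 0.0251), with 1292, 761 and 71.9 in males, against 1892 to 5537 (median 2221) in females. Without male WT 3, the array at 71.9, it was -1.56 (adjusted p = 0.112), and without female WT 4 it was -2.57 (adjusted p = 0.0523). Aldh1b1, a mitochondrial aldehyde dehydrogenase, was lower in KO males (-1.04; adjusted p = 0.0186), with 1103, 791 and 479 in males, against 1287 to 1986 (median 1479) in females. It did not pass without male KO 5 (adjusted p = 0.0741), male KO 6 (adjusted p = 0.117) or female KO 6 (adjusted p = 0.0516). Cyp2f2 was thus higher in males while the median of its zone's list was -0.07 in KO and -0.24 in WT livers for the same comparison.

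**Figure D4:**
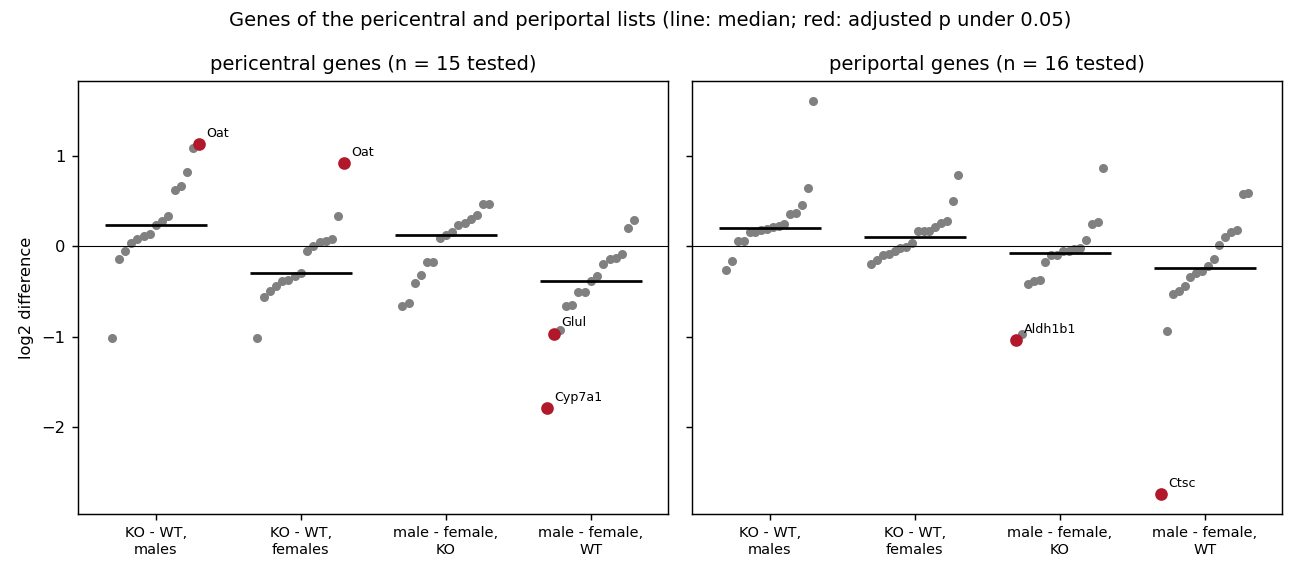
Log2 difference of each tested gene of the pericentral list (left, 15 genes) and the periportal list (right, 16 genes) in 4 comparisons; each point is a gene, the line is the median, and red points passed the adjusted test and are named. Oat is the only red point between KO and WT, and the medians for male minus female in WT lie at -0.38 and -0.24.

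Cyp2r1, the microsomal hydroxylase that makes the circulating form of vitamin D, did not pass in any comparison. Its intensities were 385, 360 and 419 in male KO livers and 337 to 492 (median 387) in female KO livers, against 333, 413 and 295 in male WT and 255 to 530 (median 375) in female WT livers. The female WT arrays fell apart into 255 and 272 (arrays 1 and 4), 375 (array 5), and 530 and 522 (arrays 2 and 3). All group medians lay between 333 and 387. KO minus WT was 0.16 in males and 0.09 in females (adjusted p = 0.808 and 0.921).

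Of the vitamin D pathway, 4 of 8 listed genes were tested. Lrp2, the endocytic receptor megalin that takes up vitamin D carriers in kidney, was detected on the 3 male KO arrays alone, at 160, 144 and 120. It was between -8.32 and 12.6 on the 5 female KO arrays, and not above 4.27 on any WT array. Male KO livers were at least 4.24-fold higher than male WT livers and at least 4.24-fold higher than female KO livers, counted against the detection threshold on the offset scale. Only the male KO arrays brought the probe past the filter of 3 detected arrays, so it had to differ once tested, and its p-values are not given.

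Cyp2j5, an arachidonic acid epoxygenase of kidney and liver, had values between -15.4 and 10.6 on the 16 arrays and was not detected on any, so no fold is given. Of the enzymes of epoxide and eicosanoid metabolism, 6 of 12 were tested. Pla2g6, a phospholipase that releases fatty acids from membranes, was the 1 that passed, in KO minus WT in males (1.5% of all genes). It was higher in male KO livers, with 366, 339 and 376, against 128, 34.1 and 72.7 in male WT livers, and KO minus WT was 2.12 (adjusted p = 0.00937; 1.73 and adjusted p = 0.0588 without male WT 2). In females it was 1.19 (adjusted p = 0.0536), with 239 to 428 (median 256) in KO against 67.9 to 268 (median 113) in WT livers.

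Of the hepatocyte transcription factors and nuclear receptors listed, 14 of 18 were tested. Foxa3, a forkhead factor of liver, was the 1 that passed, in KO minus WT in males (1.5% of all genes). It was higher in male KO livers, with 4345, 6381 and 4372, against 2903, 2272 and 2503 in male WT livers (0.95; adjusted p = 0.0204), and without overlap. It did not pass without male KO 5, male WT 2 or male WT 3 (adjusted p up to 0.125). In females KO minus WT was 0.39 (adjusted p = 0.285). Of the genes of P450 electron transfer and haem synthesis, 7 of 8 were tested and none passed in any comparison; at an unadjusted p under 0.05, 1 was higher in male KO than in male WT livers (14.3% of all genes passed in either direction) and none differed between female KO and female WT livers (12.3%). At the same p, 2 were higher and 1 lower for male minus female in KO (14% of all genes), 2 higher and 1 lower in WT (17.4%), and 1 was lower for the interaction (8.6%).

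Within groups, 4 of the genes deviated together from array to array. Over the 16 arrays, the deviations from the group means of Cyp2d22 and Cyp2d26 had a correlation of 0.94, and those of Cyp2f2 had 0.90 with each of them. Cyp2d10 had 0.83 with Cyp2d26, 0.82 with Cyp2d22 and 0.69 with Cyp2f2. Cyp2r1 went the other way, at -0.82 with Cyp2d22, -0.73 with Cyp2d26, -0.72 with Cyp2f2 and -0.52 with Cyp2d10. Female WT 4 was the highest array of its group for Cyp2d22, Cyp2d26, Cyp2f2, Cyp2d10, Cyp1a2 and Cyp2d9, and female KO 9 was the lowest of its group for Cyp2d22, Cyp2d26, Cyp2f2, Cyp2d10 and Cyp2e1. These are the arrays least like their own group over all genes. The correlations share arrays and their normalisation, and the 99th percentile of the correlation of all genes with Cyp2f2 was 0.89.

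**Figure D5:**
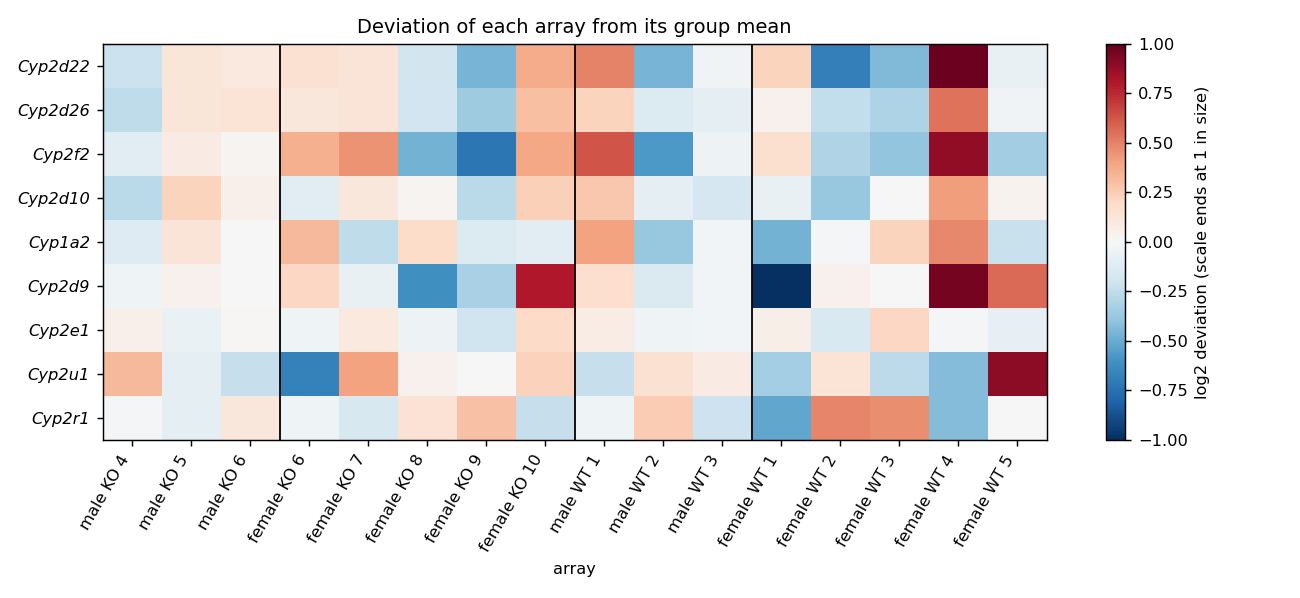
Log2 deviation of each of the 16 arrays (columns, ordered by group) from its group mean for the 9 tested genes (rows), red above and blue below the mean; 1 value lies beyond the end of the scale, Cyp2d9 in female WT 1 at -1.57. Cyp2d22, Cyp2d26, Cyp2f2 and Cyp2d10 share their colours across most arrays, with female WT 4 red in all of them, and Cyp2r1 often has the opposite colour.

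By the same measure over 9905 other genes, the genes most like Cyp2f2 were Rnf26 (0.97), Tmbim6 (0.96) and Aldh4a1 (0.96). Those most like Cyp1a2 were Lpcat3 (0.93), Acsf3 (0.91) and Gnat1 (0.87), and those most like Cyp2e1 were Slc6a15 (0.90), Snx27 (0.88) and Smim3 (0.83). Slc25a47 (0.85), Ppm1k (0.83) and Vrk3 (0.80) were most like Cyp2d9. These are descriptions over 16 arrays.

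Among markers of other cells, 1 passed between the sexes (2.36% of all genes in KO and 3.71% in WT livers). None passed between the genotypes (1.5% of all genes in males and 2.37% in females). Of 20 listed, 14 were tested. Pecam1, an endothelial adhesion molecule, was lower in males in KO (-0.79; adjusted p = 0.0332) and in WT livers (-0.73; adjusted p = 0.0397), and no other marker of the list passed. With 1 array left out, Pecam1 passed in 12 of 16 fits for KO and in 6 of 16 for WT livers (adjusted p up to 0.157). The summed intensity of the 14 was 23369 to 27076 in male KO livers, against 28769 to 31335 in female KO livers. In WT livers it was 27238 to 29301 in males, against 24632 to 40075 in females. A sum of linear intensities weighs bright probes most, and the list includes the blood cell markers Hba-a1, S100a8 and Cd3e. The sum is therefore no measure of cell content. The cholangiocyte markers Krt19 and Epcam, the endothelial Kdr and the macrophage marker Cd5l were not detected on any array. Sox9, the cholangiocyte marker tested, had KO minus WT of 0.74 in males (SE 0.30; adjusted p = 0.272) and 0.74 in females (SE 0.24; adjusted p = 0.138). Of the 6 hepatocyte markers, 1 passed for male minus female in WT, where 3.71% of all genes passed. This was Alb, albumin, lower in WT males (-0.97; adjusted p = 0.0236). It did not pass without male WT 2, male WT 3 or female WT 3 (adjusted p up to 0.144). In this comparison 3 of the 6 were below 0, while Apoa1 (0.13), Ttr (0.09) and Serpina1c (0.08) were above it. The part of these marker differences in the sex differences of Cyp2d9, Cyp2f2 and Cyp2u1 was not tested.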

How the data were processed

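Liver RNA of 16 mice was hybridised to Illumina mouse arrays, 1 array per animal. The authors deposited normalised, linear intensity values of 45281 probes. Of their tools, lumi is named, with no version. The sorted values are the same on every array and 35.2 to 35.3% lie below 0, so the deposited intensities were background-subtracted and quantile normalised. A second table of non-normalised signal has 32 columns that match no sample label and was not used, so the planned neqc normalisation was not run. The number of arrays limits the precision.

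An offset of 16 was added to each value, with negative ones raised to 0 first, before conversion to log2; a log2 difference on this scale understates changes of dim genes. A probe was detected above 3 times the root mean square of the values below 0 of its array (about 21), and was kept when detected on at least 3 arrays. Probes were named from the platform annotation (34885 with 1 gene, 18 with several, 10378 with none), and the probe with the highest mean stood for each of 9906 genes. Group means over all 16 arrays were fitted with limma 3.58.1 in R 4.3.3 (12 residual degrees of freedom), with p-values adjusted by Benjamini-Hochberg over all genes at 0.05. P-values measure the spread between these animals only. The script was tested on simulated data.

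Promoters and positions are from RefSeq (GRCm38.p6), and windows were aligned with Biopython 1.88. The genes and lists were chosen with earlier results of these data known. All 10 genes are named, plus Rxra, Glul, Oat and Hal, up to 4 genes of each list that passed in each comparison, and the 3 genes most like each of Cyp1a2, Cyp2e1, Cyp2f2 and Cyp2d9. Alternatives were other offsets, filters, probes, loess, array weights, groups fitted alone, the replicate number as a block and leaving out each array.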

Additional observations from a re-analysis of the deposited data

How the results depend on the processing

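Of 1114 values of the 9 tested genes under the alternatives, 1069 kept their direction and their side of the threshold, 14 passed where they had not, 5 no longer passed and 26 changed sign. Each value that changed sign is of a difference that did not pass. In KO minus WT in males the count of these genes that passed was 0, and it was 1 with an offset of 50 and 1 when only the 2 groups were fitted (Cyp2u1 both times), 5 with array weights, and 0 to 1 without 1 array (1, Cyp2u1, without female WT 5). For male minus female it was 1 to 2 in KO without 1 array (1 without male KO 5) and 2 to 3 in WT, and 5 in WT with array weights. With those weights the count over all genes was 1611 in KO minus WT in males, and for male minus female 501 in KO livers and 1405 in WT livers, against 149, 234 and 368 without them, and the cause was not tested. Without 1 array these 3 counts were 74 to 192, 116 to 275 and 169 to 398. The count for KO minus WT in females, 235, was 137 with only the 2 groups fitted, and the interaction, passed by 6 genes, gave 39 with array weights and could not be fitted with 2 groups. At an unadjusted equal-variance p under 0.1 and a change over 1.5-fold, male minus female in WT had 907 genes, and 199 after adjustment. Cyp2f2, male minus female in WT, also lost its call with only these 2 groups fitted (adjusted p = 0.0603). In KO minus WT in females, Cyp1a2 turned to 0.0734 and Cyp2r1 to -0.0217 with array weights, and the other probes gave -0.19 for Cyp2d22 and -0.29 for Cyp2u1. The Cyp2u1 interaction was 0.21 on its other probe. Without 1 array the lowest and highest values for KO minus WT in females were -0.148 and 0.0917 for Cyp1a2 and -0.0408 and 0.211 for Cyp2r1. For male minus female they were -0.098 and 0.0329 for Cyp2r1 in KO, and in WT -0.313 and 0.0766 for Cyp1a2, -0.209 and 0.287 for Cyp2d22 and -0.245 and 0.00685 for Cyp2r1. For the interaction they were -0.61 and 0.0209 for Cyp2d9, -0.102 and 0.497 for Cyp2f2 and -0.0468 and 0.205 for Cyp2r1. With only the 2 groups fitted, Alb, Aldh1b1, Ctsc, Cyp2d40 (both sexes), Foxa3, Glul, Oat in males and Pecam1 in KO did not pass either (adjusted p of 0.0603 to 0.128). The other probes, the 6 arrays without a block and the adjusted equal-variance p were chosen after seeing the data, and neqc was not run.

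Whether the shared numbers of male and female WT pair the animals could not be told from 3 shared numbers. Arrays of a shared number had correlations of their deviations of 0.0983, 0.261 and 0.0749, and those of different numbers had -0.358 to 0.292. Male WT 1 was most like female WT 1 (0.0983), and male WT 2 was most like female WT 3 (0.292). With the replicate number as a block, 3 of the 9 genes and 75 genes in all passed for male minus female in WT, against 2 and 106 on the same 6 arrays without it. The male and female KO animals share 1 number and the genotypes of a sex share none, so no other block was possible. For Cyp2u1 the female arrays, between 8.94 and 46.5, lie near the detection threshold of about 21, which limits its levels in females.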
